A study of Homo sapiens with 48 samples.

Results

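The genes described here are protein-coding, autosomal genes that lie for 50% or more of their length under domains of histone H3 trimethylated at lysine 9 (H3K9me3), the mark of constitutive heterochromatin, and that are nevertheless transcribed in the pancreatic cancer line ASPC1. They were chosen by 2 readouts. One was the cover of the gene span in the count table by the authors' broad H3K9me3 peaks from ASPC1, and the other was a sum of 100 or more RNA-seq counts over the 12 ASPC1 libraries. Genes whose symbols start with ZNF, PCDH, MAGE or KRT were left out. Of 36843 genes in the table, 19022 were autosomal and protein-coding, 714 of these reached the cover limit, and 244 reached both limits. Of the 244, 165 were ZNF genes and 8 were PCDH genes, and 0 carried MAGE or KRT symbols, which leaves the 71 genes of this account.

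The samples came from 3 established lines of pancreatic ductal adenocarcinoma (PDAC). There were 30 RNA-seq libraries, 3 in each of 10 groups. ASPC1 and CFPAC1 cells received an siRNA to ZNF274 (siZNF274) or a control siRNA (siCTRL), and in a separate arm they received azacitidine at 5 µM (AZA), which blocks DNA methyltransferases, or the solvent DMSO. Panc3.27 cells carried a vector for ZNF274 (ZNF274OE) or an empty vector. The 18 CUT&RUN profiles (cleavage of chromatin at antibody-bound sites) came from ASPC1 cells with a hairpin to ZNF274 (shZNF274) or a control hairpin (shCTRL), with 9 days of 1 µg/ml doxycycline in both arms. Each arm had 3 profiles for ZNF274, 3 for H3K9me3 and 3 for control IgG. By the design text the siRNA knockdown was transient and the hairpin knockdown stable. H3K9me3 was profiled in ASPC1 only, so the cover set beside CFPAC1 and Panc3.27 RNA is that of another line. The duration of the siRNA and AZA arms, and whether Panc3.27 cells were a clone, are not stated in the labels.

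H3K9me3 is written by methyltransferases such as SETDB1 and SUV39H1 and is bound by HP1 proteins. ZNF274, a KRAB zinc finger protein, binds DNA and brings TRIM28 and SETDB1 to its sites, above all to the zinc finger exons at the far end of other zinc finger genes. DNA methylation, which azacitidine lowers, is a further layer of repression that often lies over the same heterochromatin.

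Of the 410 covered autosomal genes without the barred symbols, 71 (17.3%) reached the count minimum. The share was 62.7% among the 263 covered ZNF genes and 64.7% among all autosomal protein-coding genes. Counts chose the members, so these shares are a description. The cover of the 71 genes ran from 50.3% to 100% with a median of 71.4%. It was 90% or more in 19 genes and under 60% in 20. Just inside the limit stood CHFR, SOX30 and HNRNPA1P48 at 50.3%, 50.3% and 50.4%, and just outside it MUC3A, NFE2L3 and CATSPER3 at 49.8%, 49.4% and 49.3%. The lowest count sums inside the limit were 101 for LA16c-306E5.2 and 107 for TXNDC2. Peaks called in shZNF274 cells, including those called in both arms, cover 50% or more of 69 members. Peaks called in shCTRL cells, again including those called in both arms, do so for 63. For 61 members each of these sets reaches 50%. The single peak of WFDC2 was called in shCTRL cells only, and that of PI3 in shZNF274 cells only.

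The symbols do not remove every zinc finger gene. By symbol, 11 of the 71 genes are C2H2 zinc finger genes under other names (RBAK, ZFP1, ZFP3, ZFP14, ZFP37, ZFP69, ZFP69B, ZFP90, ZSCAN29, ZSCAN30 and ZSCAN32), so that 60 genes without zinc fingers remain. In all, 8 members, ZSCAN30 among them, lie under a peak that also reaches a ZNF gene, for example TIGD7 beside ZNF263 and ZNF75A and ERV3-1 beside ZNF117, and TAF7 and SLC25A2 share a peak with protocadherin genes. The 71 genes sit on 17 chromosomes, with 10 on chromosome 16, 9 on chromosome 7, 7 each on chromosomes 5 and 10, and 1 on chromosome 19, the home of most KRAB zinc finger clusters.

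The span given in the count table matters for a few genes. RefSeq gives a span for 69 of the 71 genes, and 62 of them keep 50% cover over it. In 4 genes, TSPAN8, CHFR, IFIT2 and KCNJ11, the table span is 2.43 to 9.63 times the RefSeq span and none of the RefSeq span is covered. COL28A1, MSRB3 and TAF7 fall just under the limit, at 46.8%, 48.2% and 47.9% of the RefSeq span. The table span of TAF7 is 26.4 times that of RefSeq. For TSPAN8, CHFR, IFIT2 and KCNJ11, the H3K9me3 therefore lies beside the gene as RefSeq draws it.

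By symbol, the largest class of members, with 12 genes, belongs to secretion and the surface of epithelia: the mucin MUC5AC, the protease inhibitors PI3, WFDC2 and WFDC10B, the serine proteases PRSS22 and PRSS41, the scavenger receptor DMBT1, the complement regulator C4BPA, the tetraspanin TSPAN8, the adhesion protein MPZL2, the pore-forming GSDMC and the butyrophilin-like BTNL8. Another 6 genes act in signalling, among them the ERK phosphatase DUSP5, the JNK kinase MAPK9 and the zinc receptor GPR39. Classes of 5 or fewer hold enzymes of steroids, drugs and lipids (AKR1C3, AKR1C4, CYP3A7), matrix and guidance proteins (COL1A2, COL28A1, NTN1), interferon-induced genes (IFIT2, CMPK2, SAMD9, TMEM140), DNA repair and checkpoint genes (MGMT, EXO5, POLE4, CHFR) and germ cell genes (ACRBP, SOX30, TXNDC2).

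Start sites were set beside the peaks. A RefSeq start site was matched for 50 of the 71 genes. It lay under a peak in 9 of the 50 (18%, exact Clopper-Pearson 95% interval 8.58 to 31.4%, for counting error only), compared with 28 of 148 covered expressed ZNF genes (18.9%) and 96 of 9843 expressed autosomal genes (0.975%). Cover of the body chose the genes, so the distance from the 0.975% is no test. In the other 41 genes no peak lay over the start. Of these, 37 have 50% or more of the RefSeq span covered, MSRB3 and TAF7 have less, and TSPAN8 and CHFR have none of it covered. Within 1000 bases either side of the start, 16 genes (32%) had a peak, against 43.9% of covered expressed ZNF genes and 2.11% of expressed autosomal genes.

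As a description with no test, the covered and the free starts were unlike in CG dinucleotides, the sites of DNA methylation. Promoter windows of 300 bases (250 before to 50 after the start) held a median of 4 CG in the 9 genes with a covered start, and the observed CG reached 0.6 of the number expected from base content in 2 of them (TIGD7 and ZFP37 have 28 and 30 CG). In the 41 genes with a free start the median was 27 CG, and 31 of them reached 0.6. The genes with a covered start were also the less expressed ones, at a median of 292 counts summed over the ASPC1 libraries, against 3344 in genes with a free start. Over all expressed autosomal genes 82% of windows reached 0.6, and over the 50 members 66%.

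The promoters of 6 genes show this range, with CG in capitals. They are taken from RefSeq, build GRCh38.p14, 5′ to 3′ on the strand of the gene. COL28A1 (chr7:7535824-7536123, minus strand) and C4BPA (chr1:207103983-207104282, plus strand) have a covered start and few CG, and TIGD7 (chr16:3305381-3305680, minus strand) has a covered start that is rich in CG. TSPAN8 (chr12:71157950-71158249, minus strand) has a free start with 1 CG, and none of its RefSeq span is covered. WFDC2 (chr20:45469503-45469802, plus strand) and ZSCAN30 (chr18:35290180-35290479, minus strand) have free starts that are rich in CG.
COL28A1: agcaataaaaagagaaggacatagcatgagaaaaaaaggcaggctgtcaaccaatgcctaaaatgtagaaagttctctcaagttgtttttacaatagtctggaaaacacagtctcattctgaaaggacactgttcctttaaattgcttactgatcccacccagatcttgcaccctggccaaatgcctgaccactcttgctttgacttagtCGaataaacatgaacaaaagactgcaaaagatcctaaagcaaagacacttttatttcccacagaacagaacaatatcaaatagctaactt
C4BPA: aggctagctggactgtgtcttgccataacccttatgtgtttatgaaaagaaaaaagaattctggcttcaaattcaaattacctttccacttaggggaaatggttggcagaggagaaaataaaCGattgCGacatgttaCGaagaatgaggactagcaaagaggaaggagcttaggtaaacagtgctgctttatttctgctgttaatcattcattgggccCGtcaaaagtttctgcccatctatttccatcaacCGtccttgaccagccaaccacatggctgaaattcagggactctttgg
TIGD7: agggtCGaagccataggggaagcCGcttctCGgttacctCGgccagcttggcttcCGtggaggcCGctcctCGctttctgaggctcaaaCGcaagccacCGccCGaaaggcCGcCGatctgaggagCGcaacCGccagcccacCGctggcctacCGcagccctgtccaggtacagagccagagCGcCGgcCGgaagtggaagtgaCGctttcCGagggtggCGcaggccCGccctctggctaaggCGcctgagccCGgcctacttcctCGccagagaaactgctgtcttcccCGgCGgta
TSPAN8: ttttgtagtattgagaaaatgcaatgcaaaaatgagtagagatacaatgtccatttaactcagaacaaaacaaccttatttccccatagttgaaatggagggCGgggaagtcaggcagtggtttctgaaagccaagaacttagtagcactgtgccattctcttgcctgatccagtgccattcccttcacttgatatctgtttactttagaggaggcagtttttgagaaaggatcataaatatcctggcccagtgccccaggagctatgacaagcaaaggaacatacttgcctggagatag
WFDC2: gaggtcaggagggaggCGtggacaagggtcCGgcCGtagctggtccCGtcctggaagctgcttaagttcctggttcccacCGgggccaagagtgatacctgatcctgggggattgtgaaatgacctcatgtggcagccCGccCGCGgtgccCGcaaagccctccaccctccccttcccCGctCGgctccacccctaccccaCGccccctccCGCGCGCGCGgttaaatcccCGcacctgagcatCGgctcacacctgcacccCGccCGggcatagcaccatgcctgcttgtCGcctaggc
ZSCAN30: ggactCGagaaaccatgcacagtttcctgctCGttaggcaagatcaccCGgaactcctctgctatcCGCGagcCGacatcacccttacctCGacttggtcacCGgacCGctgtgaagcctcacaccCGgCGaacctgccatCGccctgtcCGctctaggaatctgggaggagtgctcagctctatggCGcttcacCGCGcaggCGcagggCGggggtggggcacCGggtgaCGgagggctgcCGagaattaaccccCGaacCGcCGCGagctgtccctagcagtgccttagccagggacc
COL28A1 has 1 CG in its window and C4BPA 5, against 28 in TIGD7, 22 in WFDC2 and 25 in ZSCAN30. No methylation values were used here, so the letters show where methylation could lie and not whether it does.

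**Figure D1:**
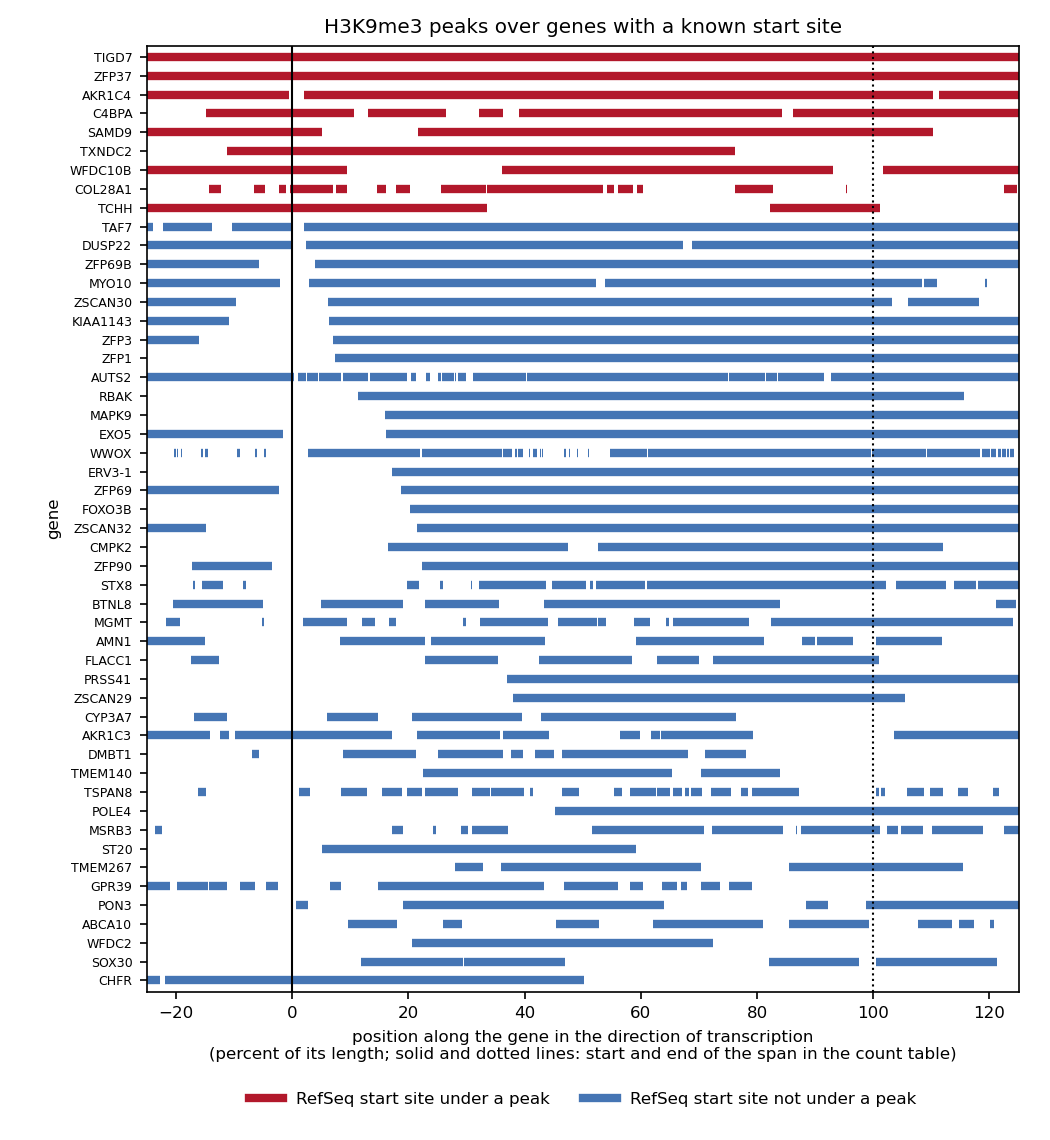
H3K9me3 peaks over the 50 genes with a RefSeq start site, drawn along the gene in the direction of transcription as percent of the span in the count table, with 25% shown on either side. Red bars are peaks of the 9 genes whose RefSeq start site lies under a peak and blue bars those of the other 41, where no peak crosses the RefSeq start and the cover of the span runs from scattered pieces to nearly all of it.

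The deposited peak list also gives the authors' own call of shZNF274 against shCTRL for each peak. Of 262 peaks that touch the 71 genes, 5 (1.91%, exact Clopper-Pearson 95% interval 0.623 to 4.4%) carry the call Down in the authors' deposited table and 0 the call Up. Over all 63955 peaks of that table, 409 (0.64%) are Down and 245 (0.383%) Up. The peaks of the members are wide, with a median of 9448 bases against 3633 over all peaks, and 77.1% of them are annotated as intron, against 43.1%. In the authors' deposited table the Down peaks lie over ACRBP (acrosin-binding protein of sperm; chromosome 12, 6639608 to 6646712), COMMD5 (chromosome 8, 144832484 to 144850445), SOX30 (a germ cell transcription factor; chromosome 5, 157650019 to 157657973), ZFP3 (chromosome 17, 5079736 to 5104796) and ZSCAN30 (chromosome 18, 35249777 to 35287803), and each was called in both arms. With 5 such peaks in 262, a difference from the 0.64% of all peaks rests on few events and was not tested. ZFP3 and ZSCAN30 are zinc finger genes and COMMD5 shares its peak with ZNF7, which leaves ACRBP and SOX30.

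Library totals ran from 31415743 to 43383141 counts, and the 71 genes together took 0.0998 to 0.148% of the total in ASPC1, 0.18 to 0.218% in CFPAC1 and 0.164 to 0.181% in Panc3.27. ZNF274 mRNA was 2.77-fold higher in ZNF274OE than in vector libraries (adjusted p = 4.17e-11, edgeR). It was also higher in AZA than in DMSO libraries, 1.4-fold in ASPC1 (adjusted p = 0.00317) and 1.12-fold in CFPAC1 (adjusted p = 0.0464). In CFPAC1 this mRNA was no longer called without AZA replicate 1, 2 or 3 or DMSO replicate 1 or 2 (adjusted p up to 0.148). In the libraries labelled siZNF274 it was not called lower: ASPC1 had 16.6, 19.2 and 22.4 counts per 1000000 counts (CPM, scaled within a line) in siZNF274, against 15.8, 16.3 and 20.6 CPM in siCTRL libraries (adjusted p = 0.305). CFPAC1 had 32.6, 34.4 and 31.5 CPM in siZNF274, against 33.5, 34 and 35.7 CPM in siCTRL libraries (adjusted p = 0.424). Directions below are therefore those of the libraries labelled siZNF274. All 7 ductal epithelial markers (KRT7, KRT8, KRT18, KRT19, EPCAM, CDH1 and MUC1) were expressed in every group, and leukocyte markers summed to at most 16.8 CPM and acinar markers to at most 0.395 CPM. Fibroblast markers summed to at most 2.2 CPM in ASPC1, 161.4 CPM in CFPAC1 and 77.2 CPM in Panc3.27 libraries, and endothelial markers to at most 1.4, 21.4 and 58.4 CPM in the same order. In bulk RNA, fewer cells of a kind and less RNA per cell cannot be told apart.

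The lines differed widely in the epithelial genes. Levels between lines are given as CPM of the total count in solvent or vector controls, and they are a description, since the ASPC1 counts chose the genes. MUC5AC, a gel-forming mucin, had 97.4, 211 and 115 CPM in CFPAC1 DMSO libraries, against 0.0514, 0.253 and 0.135 CPM in ASPC1 DMSO libraries, a ratio of the means of 962. GSDMC had 34.8, 32 and 33.6 CPM in CFPAC1, against 0.36, 0.197 and 0.379 CPM in ASPC1 libraries. Both genes are close to the floor in ASPC1, where the mark covers 67.3% and 97.6% of them. Reads in MUC5AC are uncertain, since it resembles neighbouring mucin genes.

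A set of 4 genes (5.63%) was 10-fold or more higher in both other lines, against 2.11% of the expressed autosomal genes and 6.06% of the covered expressed ZNF genes. MYO10, a myosin of filopodia, had 297, 348 and 299 CPM in CFPAC1 and 341, 321 and 326 CPM in Panc3.27 vector libraries, against 4.04, 4.08 and 3.98 CPM in ASPC1. DUSP5 had 124, 112 and 109 CPM in CFPAC1 and 96.7, 102 and 97.1 CPM in Panc3.27, against 0.823, 0.703 and 0.596 CPM in ASPC1. MPZL2 stood at 52.5 and 17 times ASPC1 in CFPAC1 and Panc3.27, and PRSS22 at 13.2 and 12.4 times. For MYO10 and DUSP5 every library of the other lines lies above every ASPC1 DMSO library. NTN1, a secreted guidance cue, had 252, 242 and 271 CPM in Panc3.27, against 0.283, 0.703 and 0.298 CPM in ASPC1. PI3, the elastase inhibitor elafin, had 45.6, 46.5 and 50.3 CPM in Panc3.27, against 0.283, 0.225 and 0.217 CPM in ASPC1.

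Together, 11 of the 71 genes (15.5%) were 10-fold or more higher in CFPAC1 or Panc3.27 than in ASPC1, against 6.16% of the 12315 expressed autosomal genes and 10.3% of the covered expressed ZNF genes. Members are low in ASPC1, with a median sum of 1132 counts against 13170 for all expressed genes, and these shares do not allow for that. In each of the other lines 9 members (12.7%) were 10-fold or more lower than in ASPC1, against 3.14% of expressed autosomal genes in CFPAC1 and 5.41% in Panc3.27, and 0% and 0.606% of the covered expressed ZNF genes. TSPAN8 had 31.1, 31.3 and 33.7 CPM in CFPAC1 and 0.104, 0 and 0.146 CPM in Panc3.27, against 611, 645 and 635 CPM in ASPC1. AKR1C3, a ketosteroid reductase, had 2.48, 2.42 and 2.75 CPM in Panc3.27, against 202, 197 and 200 CPM in ASPC1. MGMT, which repairs alkylated guanine, had 0 counts in the 3 Panc3.27 vector libraries (a floor of 3 counts over the 3 libraries together), against 2582 counts over the 3 ASPC1 DMSO libraries. A level within 2-fold of ASPC1 was seen for 24 members (33.8%) in CFPAC1 and 35 (49.3%) in Panc3.27, against 68.1% and 62% of all expressed genes.

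**Figure D2:**
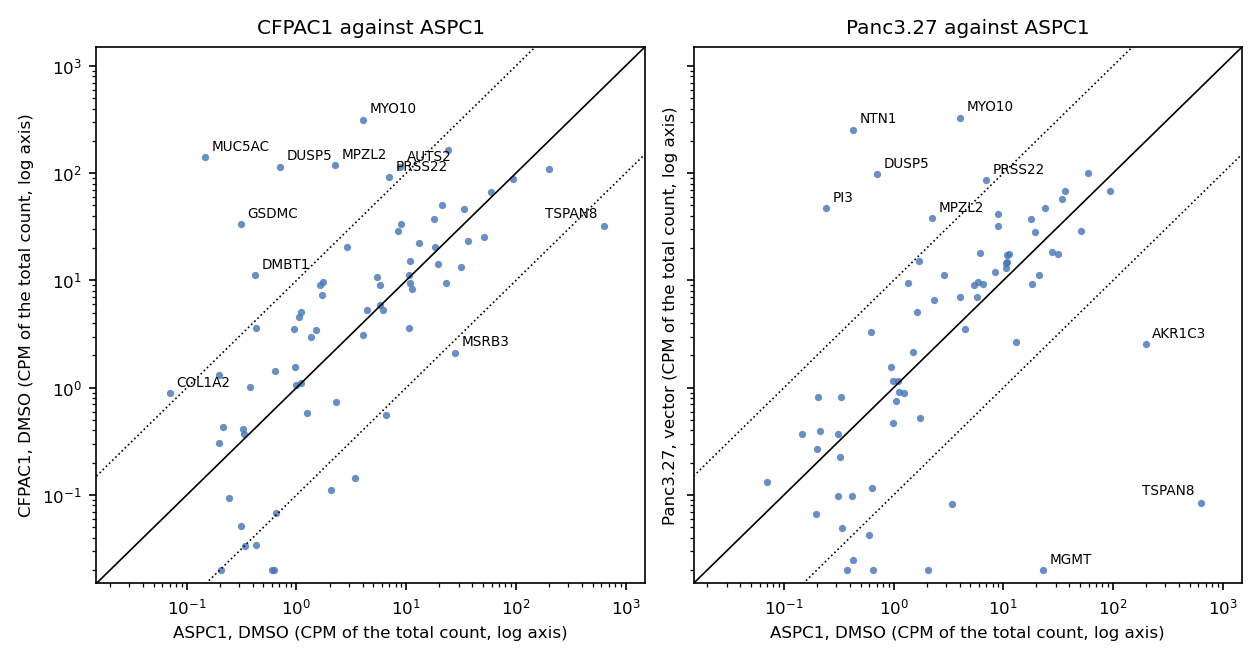
Level of the 71 genes in CFPAC1 DMSO (left) and Panc3.27 vector libraries (right) against ASPC1 DMSO libraries, as the mean CPM of the total count over 3 libraries on log axes, with values under 0.02 drawn at 0.02. The solid line marks equal levels and the dotted lines a 10-fold difference: MYO10, DUSP5, MPZL2 and PRSS22 lie above the upper dotted line in both panels.

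In ASPC1, 15 of the 71 genes were higher and 15 lower in siZNF274 than in siCTRL libraries (edgeR quasi-likelihood test, Benjamini-Hochberg adjusted p under 0.05 over 16186 genes). Over all tested genes 45.7% were called, 21.5% higher and 24.2% lower, so the members' 30 calls in 71 are near the background. Their median log2 fold change was -0.04, and 6 genes in each direction passed 2-fold. With upper quartile scaling the split was 20 higher and 13 lower. Among the covered ZNF genes 86 were higher and 7 lower of 165 in the same fit, with a median of 0.33. The 60 members without zinc fingers split 12 to 14, and the 11 zinc finger members 3 to 1. The 8 members that share a peak with a ZNF gene had 4 higher and 0 lower. In CFPAC1 siZNF274 against siCTRL libraries the same 8 members had 0 higher and 0 lower. ACRBP would fall well under the count minimum without the siZNF274 libraries, so its call here is not independent of the choice of genes.

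Of the 12 epithelial genes, 5 (41.7%) were lower and 2 (16.7%) higher, against 24.2% and 21.5% of all tested genes. This difference was not tested. PRSS22, a serine protease of the tryptase family (chromosome 16, 2852730 to 2858170), had 1.58, 1.37 and 1.6 CPM in siZNF274, against 5.85, 5.83 and 7.04 CPM in siCTRL libraries. The groups do not overlap, and the log2 fold change was -2.03 ± 0.15 (SE; adjusted p = 3.4e-08). C4BPA (chromosome 1, 207104233 to 207144972) had 0, 0.191 and 0.0553 CPM in siZNF274, against 0.84, 0.67 and 0.983 CPM in siCTRL libraries, which is 8 reads against 85 (log2 fold change -3.37 ± 0.52, adjusted p = 6.78e-05). DMBT1 was lower too, with 0.268, 0.223 and 0.111 CPM in siZNF274, against 0.637, 0.825 and 1.11 CPM in siCTRL libraries (adjusted p = 0.00132). C4BPA and DMBT1 are close to the floor of detection, and their folds have wide 95% intervals: 0.0452 to 0.208 for C4BPA and 0.123 to 0.46 for DMBT1. Ductal epithelial markers were lower as well in 6 of 7 genes, with sums of 6817 to 7524 CPM in siZNF274, against 9674 to 10960 CPM in siCTRL libraries, and their part in these results was not tested.

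Among the higher genes, DUSP5 (chromosome 10, 110497907 to 110511533) had 0.669, 0.86 and 0.94 CPM in siZNF274, against 0.203, 0.206 and 0.328 CPM in siCTRL libraries (3.37-fold, 95% interval 2.24 to 5.07, adjusted p = 8.87e-05). TMEM140, an interferon-induced membrane protein (chromosome 7, 135148072 to 135166215), had 3.02, 3.06 and 2.85 CPM in siZNF274, against 1.62, 1.24 and 1.05 CPM in siCTRL libraries (2.27-fold, adjusted p = 0.000118). ABCA10, of the lipid transporter family, had 2.38, 2.29 and 2.35 CPM in siZNF274, against 0.956, 1.13 and 1.31 CPM in siCTRL libraries (2.07-fold, adjusted p = 0.000156). In each of these genes all siZNF274 libraries lie above all siCTRL libraries. TMEM140 overlaps the more strongly counted CYREN and ABCA10 overlaps ABCA5, and the strand setting of the counts is not stated in the labels, so reads of such partners cannot be told apart. The interferon-induced members IFIT2, CMPK2 and SAMD9 were not called.

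Smaller differences were found in better expressed genes. CHFR, a checkpoint ubiquitin ligase, had 29.2, 29.7 and 29.4 CPM in siZNF274, against 19.3, 21.4 and 21.7 CPM in siCTRL libraries (1.41-fold, adjusted p = 1.26e-05), and it overlaps GOLGA3 and ZNF605. ERV3-1, the envelope gene of an endogenous retrovirus, had 11.1, 10.5 and 11.9 CPM in siZNF274, against 9.21, 6.93 and 8.19 CPM in siCTRL libraries (1.38-fold, adjusted p = 0.00137) and overlaps ZNF117. ZSCAN30 (1.35-fold, adjusted p = 0.000244) and COMMD5 (1.27-fold, adjusted p = 0.0126) lie under peaks with the call Down in the authors' deposited table, and they overlap ZNF397 and ZNF7. SOX30 (1.05-fold, adjusted p = 0.902) and ZFP3 (1.03-fold, adjusted p = 0.833) also lie under Down peaks and were not called. MSRB3, a methionine sulfoxide reductase, had 19.6, 21.1 and 19.7 CPM in siZNF274, against 27.8, 28.2 and 28.2 CPM in siCTRL libraries (log2 fold change -0.48 ± 0.06, adjusted p = 4.76e-06). ACRBP had 0.615, 0.446 and 0.498 CPM in siZNF274, against 0.348, 0.155 and 0.229 CPM in siCTRL libraries, and it was no longer called without siZNF274 replicate 1 or siCTRL replicate 2 (adjusted p up to 0.0925). Likewise COL28A1 was lost without siZNF274 replicate 1 and NTN1 without siCTRL replicate 2 (adjusted p = 0.0737 and 0.0662). MPZL2 was lost without siCTRL replicate 1 or siZNF274 replicate 2 or 3 (adjusted p up to 0.176), WWOX without siCTRL replicate 3 or siZNF274 replicate 1 or 2 (adjusted p up to 0.0658) and ZSCAN32 without siCTRL replicate 3 or siZNF274 replicate 2 (adjusted p up to 0.0997).

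**Figure D3:**
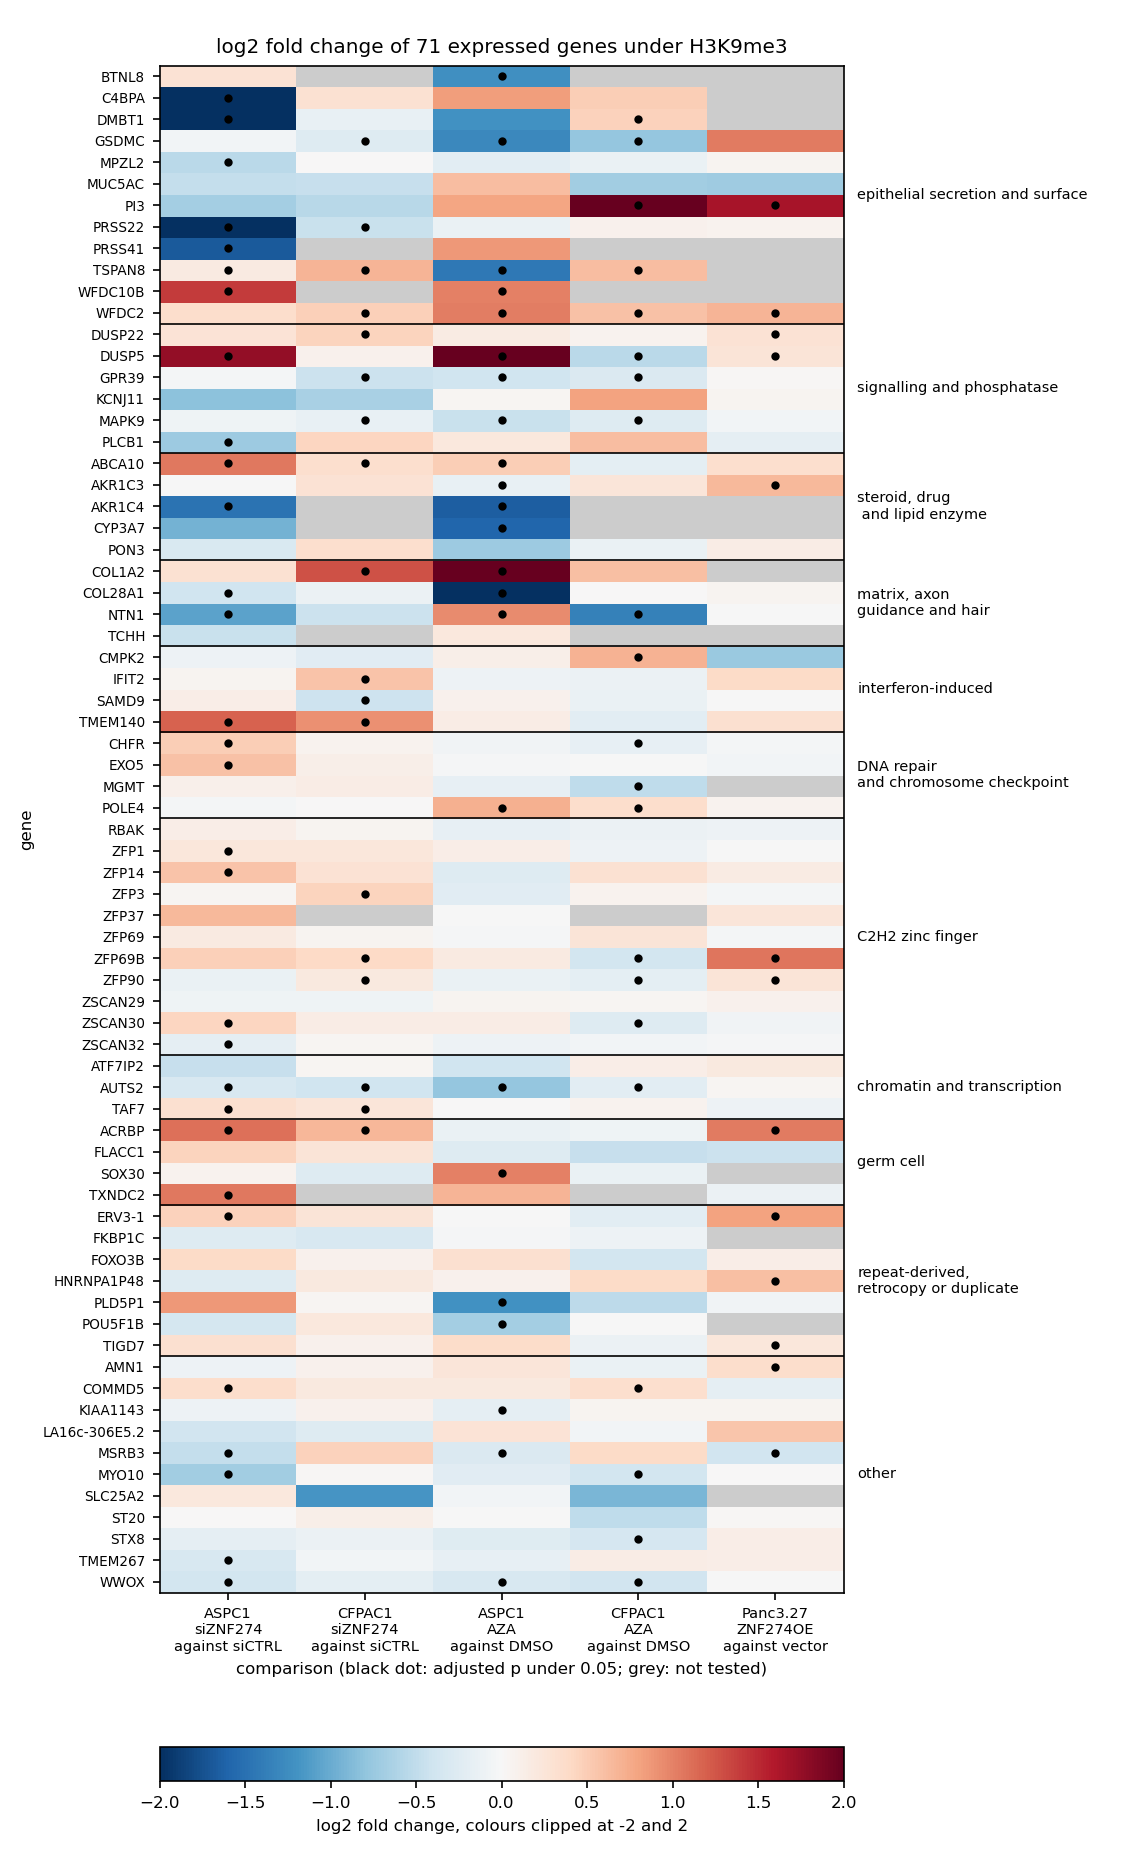
log2 fold change of the 71 genes (rows, grouped by role) in 5 comparisons (columns), with colours clipped at -2 and 2, black dots for an adjusted p under 0.05 and grey for genes not tested. In ASPC1 siZNF274 against siCTRL the 30 called genes fall to both sides, while 12 of the 13 called genes in Panc3.27 ZNF274OE against vector are on the higher side.

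In CFPAC1, whose counts took no part in the choice of the genes, 63 of the 71 passed the filter on low counts. Of these 12 were higher and 6 lower in siZNF274 than in siCTRL libraries, while 24.8% of all 18103 genes were called (11.6% higher and 13.2% lower). The replicate numbers of these libraries may pair them, and with the number as a block 13 were higher and 6 lower. AKR1C3 was then called higher (adjusted p = 0.0212), NTN1 was called lower (adjusted p = 0.0316) and MAPK9 was no longer lower (adjusted p = 0.0559), and MAPK9 was also lost without any single library. The median log2 fold change was 0.08 over the members and 0.12 over the covered ZNF genes, of which 45 were higher and 4 lower. Marker lists moved as well. All 7 ductal markers were lower, with sums of 7879 to 8230 CPM in siZNF274, against 8991 to 10170 CPM in siCTRL libraries. Endothelial markers summed to 14.5 to 21.4 CPM in siZNF274, against 4.13 to 5.38 CPM in siCTRL libraries, and leukocyte markers to 11.7 to 13.6 CPM in siZNF274, against 6.59 to 8.07 CPM in siCTRL libraries. Their part in the results of this comparison was not tested.

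TMEM140 was higher in this line too, with 16.5, 16.2 and 15.1 CPM in siZNF274, against 9.44, 7.42 and 8.42 CPM in siCTRL libraries (1.89-fold, 95% interval 1.65 to 2.18, adjusted p = 4.83e-06). IFIT2, an interferon-induced protein that binds RNA, had 46.8, 48.7 and 47.5 CPM in siZNF274, against 29.6, 34.6 and 31.8 CPM in siCTRL libraries (1.49-fold, adjusted p = 5.1e-05). SAMD9, also interferon-induced, was lower, with 145, 151 and 153 CPM in siZNF274, against 209, 207 and 180.1 CPM in siCTRL libraries (log2 fold change -0.41 ± 0.06, adjusted p = 0.000102). CMPK2 was not called, so the interferon-induced members did not move as one. Reads in IFIT2 may include those of LIPA, which overlaps its span in the count table.

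WFDC2, the protein HE4 of epithelial secretions, had 37.4, 36.2 and 35.1 CPM in siZNF274, against 23.8, 26.1 and 28.3 CPM in siCTRL libraries (1.39-fold, adjusted p = 0.000106). COL1A2, a fibrillar collagen chain, had 3.58, 3.84 and 4.01 CPM in siZNF274, against 1.24, 1.92 and 1.54 CPM in siCTRL libraries (2.42-fold, 95% interval 1.83 to 3.21, adjusted p = 0.000165). It is also 1 of 5 fibroblast markers, which summed to 85.1 to 161.4 CPM in siZNF274, against 97.5 to 145 CPM in siCTRL libraries. PRSS22 had 69.6, 69.3 and 61.4 CPM in siZNF274, against 88.7, 92.7 and 90.6 CPM in siCTRL libraries (log2 fold change -0.44 ± 0.07, adjusted p = 0.000311). GPR39 (-0.43 ± 0.07, adjusted p = 0.000472) and AUTS2, a neurodevelopmental chromatin protein (-0.39 ± 0.06, adjusted p = 0.000127), were lower on the same scale. Of the 10 tested zinc finger members, ZFP3, ZFP69B and ZFP90 were higher and 0 lower. The 9 tested epithelial genes had 2 higher (22.2%) and 2 lower (22.2%), against 11.6% and 13.2% of all genes. That difference was not tested. GSDMC was lost without siCTRL replicate 2 or 3 or siZNF274 replicate 1 (adjusted p up to 0.133).

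Called in the same direction in both lines for siZNF274 were ABCA10, ACRBP, TAF7, TMEM140 and TSPAN8, all higher, and AUTS2 and PRSS22, both lower. 0 members were called in opposite directions. Calls in both lines were not counted over all genes, of which 45.7% were called in ASPC1 and 24.8% in CFPAC1. TAF7, a subunit of the general transcription factor TFIID with a table span far longer than in RefSeq, had 114, 117 and 112 CPM in siZNF274, against 86.7, 90.5 and 98.7 CPM in siCTRL libraries in ASPC1 (1.24-fold, adjusted p = 0.00019). In CFPAC1 it had 127, 121 and 125 CPM in siZNF274, against 101, 103 and 111 CPM in siCTRL libraries (1.19-fold, adjusted p = 0.00651). TSPAN8 was 1.6-fold higher in CFPAC1 (adjusted p = 9.6e-06). In ASPC1 the 1.13-fold difference (adjusted p = 0.0446) was lost without siCTRL replicate 2 or 3 or any of the siZNF274 libraries (adjusted p up to 0.149). In CFPAC1, ABCA10 was lost without siZNF274 replicate 1 or 3 or siCTRL replicate 2 or 3 (adjusted p up to 0.12), and ACRBP without any library but siCTRL replicate 3 (adjusted p up to 0.156).

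With azacitidine, 8 of the 71 genes were higher and 15 lower in ASPC1 AZA than in DMSO libraries. The background was 35.8% of genes called, 17.2% higher and 18.6% lower. The 8 became 5 without AZA replicate 3 or DMSO replicate 2, and 4 with DESeq2. Of the covered ZNF genes 10 were higher and 26 lower. The 12 epithelial genes had 2 higher (16.7%) and 3 lower (25%), and no difference from the background was tested. ABCA10 was lost without AZA replicate 1 or 3 or DMSO replicate 2 or 3 (adjusted p up to 0.163), and AKR1C3 without AZA replicate 1 or 3 or DMSO replicate 1, 2 or 3 (adjusted p up to 0.169). GSDMC was lost without AZA replicate 1 or 2 or DMSO replicate 1 or 3 (adjusted p up to 0.151), and WWOX without AZA replicate 1 or 2 or DMSO replicate 1 (adjusted p up to 0.204).

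DUSP5 had the largest fold of the higher members in this comparison, with 8.67, 10.04 and 8.41 CPM in AZA, against 0.818, 0.704 and 0.586 CPM in DMSO libraries (12.8-fold, 95% interval 10.01 to 16.4, adjusted p = 2.53e-10). WFDC2 had 5.81, 5.39 and 6.22 CPM in AZA, against 2.81, 3.3 and 2.5 CPM in DMSO libraries (2.02-fold, adjusted p = 1.67e-05). POLE4, a small subunit of DNA polymerase epsilon, had 16.9, 18.4 and 16.9 CPM in AZA, against 9.56, 10.3 and 11.9 CPM in DMSO libraries (1.64-fold, adjusted p = 1.16e-05). Groups do not overlap in any of these genes. COL1A2 had 0.229, 0.468 and 0.645 CPM in AZA, against 0.128, 0.0563 and 0.0266 CPM in DMSO libraries (6.1-fold, 95% interval 2.85 to 13, adjusted p = 0.000917). The summed fibroblast markers, to which it belongs, stood at 1.23 to 1.68 CPM in AZA, against 0.873 to 1.2 CPM in DMSO libraries, and the part of other cells was not tested.

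The lower genes included strongly and weakly expressed ones. TSPAN8 (chromosome 12, 71125085 to 71441898) had 248, 201 and 245 CPM in AZA, against 607, 646 and 624 CPM in DMSO libraries (log2 fold change -1.44 ± 0.07, adjusted p = 4.04e-10). It gave 8650, 7724 and 9497 of the 35903, 37874 and 39743 counts of all members in AZA libraries, against 23739, 22948 and 23435 of 56523, 52489 and 54439 counts in DMSO libraries. The fall of the summed members is thus largely that of 1 gene, whose span in the table overlaps LGR5. COL28A1, a collagen (chromosome 7, 7356203 to 7535873), had 1.32, 0.963 and 1.21 CPM in AZA, against 6.42, 6.96 and 6.05 CPM in DMSO libraries (log2 fold change -2.48 ± 0.14, adjusted p = 3.27e-09). Its start is 1 of the 9 that lie under a peak. AKR1C4, a liver-type hydroxysteroid dehydrogenase, had 0.658, 0.468 and 0.826 CPM in AZA, against 2.22, 1.83 and 2.11 CPM in DMSO libraries (adjusted p = 0.000153). CYP3A7, a fetal cytochrome, had 0.143, 0.26 and 0.232 CPM in AZA, against 0.665, 0.563 and 0.719 CPM in DMSO libraries (adjusted p = 0.00141). CYP3A7 would fall well under the count minimum without the DMSO libraries, so its call is not independent of the choice of genes, and reads can be shared between the paralogues AKR1C3 and AKR1C4.

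AUTS2 had 5.38, 5.34 and 4.8 CPM in AZA, against 9.1, 9.35 and 7.99 CPM in DMSO libraries (0.587-fold, adjusted p = 7.96e-06). MAPK9 had 45.3, 43.8 and 41.7 CPM in AZA, against 63.5, 58.2 and 56 CPM in DMSO libraries (0.735-fold, adjusted p = 3.5e-05). The mark covers 90.6% and 84.1% of these genes, and neither pair of groups overlaps. Ductal epithelial markers moved too: 6 of 7 were lower and 1 higher, with sums of 9161 to 9448 CPM in AZA, against 13430 to 15050 CPM in DMSO libraries. Their part in the lower level of TSPAN8 was not tested.

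In CFPAC1, 7 of 63 members were higher and 14 lower in AZA than in DMSO libraries, with 25.7% of all genes called (12.2% higher, 13.5% lower). With upper quartile scaling the members split 9 higher and 8 lower, and all genes 2940 higher and 1914 lower in place of 2207 and 2445. The 14 also became 9 without AZA replicate 1 or DMSO replicate 1, 7 without AZA replicate 2 and 8 without DMSO replicate 2. Leukocyte markers summed to 15.1 to 16.8 CPM in AZA, against 6.68 to 8.32 CPM in DMSO libraries, fibroblast markers to 91.6 to 97.4 CPM in AZA, against 144.1 to 156.3 CPM in DMSO libraries, and 2 of 7 ductal markers were lower. The part of these lists in the members' results was not tested. Of the 9 tested epithelial genes, 4 (44.4%) were higher and 1 (11.1%) lower, against 12.2% and 13.5% of all genes. This difference was not tested. WFDC2 had 31.1, 32.2 and 30.9 CPM in AZA, against 19.6, 22.3 and 21.1 CPM in DMSO libraries (1.5-fold, adjusted p = 1.77e-05). TSPAN8 had 50.7, 52.9 and 47.9 CPM in AZA, against 31.9, 32 and 34.6 CPM in DMSO libraries (1.54-fold, adjusted p = 2.22e-05). All AZA libraries lie above all DMSO libraries in both genes. PI3 had 0.458, 0.559 and 0.63 CPM in AZA, against 0.0532, 0.154 and 0.0795 CPM in DMSO libraries, which is 70 reads against 11 (5.56-fold, 95% interval 2.75 to 11.2, adjusted p = 0.00124). CMPK2, a mitochondrial nucleotide kinase induced by interferon, was 1.62-fold higher (adjusted p = 0.00473), and it overlaps RSAD2.

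NTN1 had 1.4, 1.49 and 1.48 CPM in AZA, against 3.51, 4.31 and 3.37 CPM in DMSO libraries (log2 fold change -1.36 ± 0.17, adjusted p = 3.11e-05). GSDMC had 19, 21.5 and 19.9 CPM in AZA, against 35.7, 32.8 and 34.6 CPM in DMSO libraries (-0.77 ± 0.08, adjusted p = 4.93e-06). MGMT had 7.08, 6.29 and 6.96 CPM in AZA, against 8.75, 10.2 and 9.97 CPM in DMSO libraries (-0.51 ± 0.12, adjusted p = 0.00516). In these 3 genes the groups do not overlap. DUSP5, with 65.3, 85.3 and 92.6 CPM in AZA, against 127, 115 and 112 CPM in DMSO libraries (adjusted p = 0.0431), was no longer called without AZA replicate 1 or 2 or any DMSO library (adjusted p up to 0.178). MYO10 (0.78-fold) and the zinc finger members ZFP69B, ZFP90 and ZSCAN30 were lower as well, and ZFP69B was lost without AZA replicate 2 or 3 or DMSO replicate 1 or 3 (adjusted p up to 0.187). POLE4 was lost without AZA replicate 1 or DMSO replicate 1 or 2 (adjusted p up to 0.109), AUTS2 without AZA replicate 2 or DMSO replicate 2 (adjusted p up to 0.0822), and STX8 without AZA replicate 1 or 2 or DMSO replicate 2 or 3 (adjusted p up to 0.11). With AZA, POLE4 and WFDC2 were higher and AUTS2, GPR39, GSDMC, MAPK9 and WWOX lower in both lines. DUSP5, NTN1 and TSPAN8 were called in opposite directions. Such calls were not counted over all genes, of which 35.8% were called in ASPC1 and 25.7% in CFPAC1.

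In Panc3.27, 56 of the 71 genes passed the filter, and 12 were higher and 1 lower in ZNF274OE than in vector libraries. Over all 17350 genes, 36.9% were called, 19.8% higher and 17.1% lower, so the share of higher members is near the background and that of lower ones is below it. The lower count was 2 without vector replicate 2 or 3. Of 164 covered ZNF genes 46 were higher and 11 lower. The 6 tested epithelial genes had 2 higher (33.3%) and 0 lower, and no difference from the background was tested. Endothelial markers summed to 55 to 58.4 CPM in ZNF274OE, against 30.7 to 31 CPM in vector libraries, and fibroblast markers to 54.8 to 58.1 CPM in ZNF274OE, against 75.7 to 77.2 CPM in vector libraries. Of 7 ductal markers 1 was higher and 3 lower. The part of these lists in the members' results was not tested.

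PI3 (chromosome 20, 45174902 to 45176544) had 148, 157 and 142 CPM in ZNF274OE, against 46.1, 46 and 50.01 CPM in vector libraries (3.14-fold, 95% interval 2.91 to 3.4, adjusted p = 4.22e-11). ZFP69B, itself a KRAB zinc finger gene, had 3.84, 4.58 and 5.06 CPM in ZNF274OE, against 2.27, 2.22 and 1.93 CPM in vector libraries (2.1-fold, adjusted p = 7.22e-05). ERV3-1 had 22.4, 20.8 and 25 CPM in ZNF274OE, against 13.1, 13.8 and 12 CPM in vector libraries (1.75-fold, adjusted p = 4.41e-06). In these 3 genes every ZNF274OE library lies above every vector library. WFDC2 had 18.4, 16.8 and 18.3 CPM in ZNF274OE, against 11, 10.9 and 11.5 CPM in vector libraries (1.6-fold, adjusted p = 7e-06). AKR1C3 was 1.57-fold higher (adjusted p = 0.0013). ACRBP was 2.05-fold higher (adjusted p = 0.0318), but not called without vector replicate 1 or 3 or ZNF274OE replicate 1 or 3 (adjusted p up to 0.162), and HNRNPA1P48 was lost without vector replicate 1 or 2 or ZNF274OE replicate 1 or 3 (adjusted p up to 0.122). MSRB3, the gene that was lower, had 13.6, 15 and 14 CPM in ZNF274OE, against 20.2, 18 and 17.1 CPM in vector libraries (log2 fold change -0.38 ± 0.08, adjusted p = 0.0018). ACRBP, DUSP5, DUSP22, ERV3-1, WFDC2, ZFP69B and ZFP90 were higher in ZNF274OE than in vector libraries and also higher in siZNF274 than in siCTRL libraries of ASPC1 or CFPAC1. These are different lines and perturbations, and the difference between them was not tested. The same overlap was not counted over all genes, of which 21.5% in ASPC1 and 11.6% in CFPAC1 were higher with siZNF274. Whether the overlap is a trait of the members is therefore not known.

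Differences between lines were tested in 1 fit over the 24 libraries of ASPC1 and CFPAC1, in which a positive difference means a higher log2 fold change in ASPC1. For siZNF274, 6 members had a higher and 11 a lower value in ASPC1, with 16.6% of 19094 genes called (7.37% higher, 9.28% lower). The 6 became 3 without ASPC1 siCTRL replicate 3, CFPAC1 siCTRL replicate 2 or CFPAC1 siZNF274 replicate 2 or 3. PRSS22 was at -2.02 in ASPC1 and -0.42 in CFPAC1 (difference -1.60 ± 0.17, adjusted p = 8.1e-08). C4BPA was at -3.37 in ASPC1 and 0.32 in CFPAC1 (difference -3.70 ± 0.56, adjusted p = 2.62e-05). PRSS22 was thus lower in both lines and by more in ASPC1. MYO10 was at -0.70 in ASPC1 and 0.05 in CFPAC1 (adjusted p = 0.000181), MSRB3 at -0.48 in ASPC1 and 0.48 in CFPAC1 (adjusted p = 0.000259), and PLCB1, a phospholipase of G protein signalling, at -0.72 in ASPC1 and 0.45 in CFPAC1 (adjusted p = 0.00171). IFIT2 and TSPAN8 had the larger value in CFPAC1.

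For AZA, 6 members had a higher and 9 a lower value in ASPC1, with 17.3% of genes called (8.65% higher, 8.66% lower), and the 6 became 3 without ASPC1 AZA replicate 3. TSPAN8 was at -1.43 in ASPC1 and 0.63 in CFPAC1 (difference -2.07 ± 0.11, adjusted p = 2.53e-13). DUSP5 was at 3.68 in ASPC1 and -0.53 in CFPAC1 (difference 4.21 ± 0.35, adjusted p = 9.43e-10). NTN1 was at 0.96 in ASPC1 and -1.35 in CFPAC1 (difference 2.30 ± 0.35, adjusted p = 2.14e-05). For DUSP5 and NTN1 the line with the lower DMSO level, ASPC1, is the one in which the gene was higher with AZA, and for TSPAN8 it is CFPAC1. Among members with a called difference, ATF7IP2, AUTS2 and DMBT1 went the other way. Their DMSO level and their log2 fold change were both lower in ASPC1 than in CFPAC1. A relation between DMSO level and direction was not tested. COL28A1 was at -2.47 in ASPC1 and 0.02 in CFPAC1 (difference -2.49 ± 0.42, adjusted p = 6.96e-05). AUTS2 was lower in both lines, and by more in ASPC1 (difference -0.57 ± 0.10, adjusted p = 9.18e-05).

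**Figure D4:**
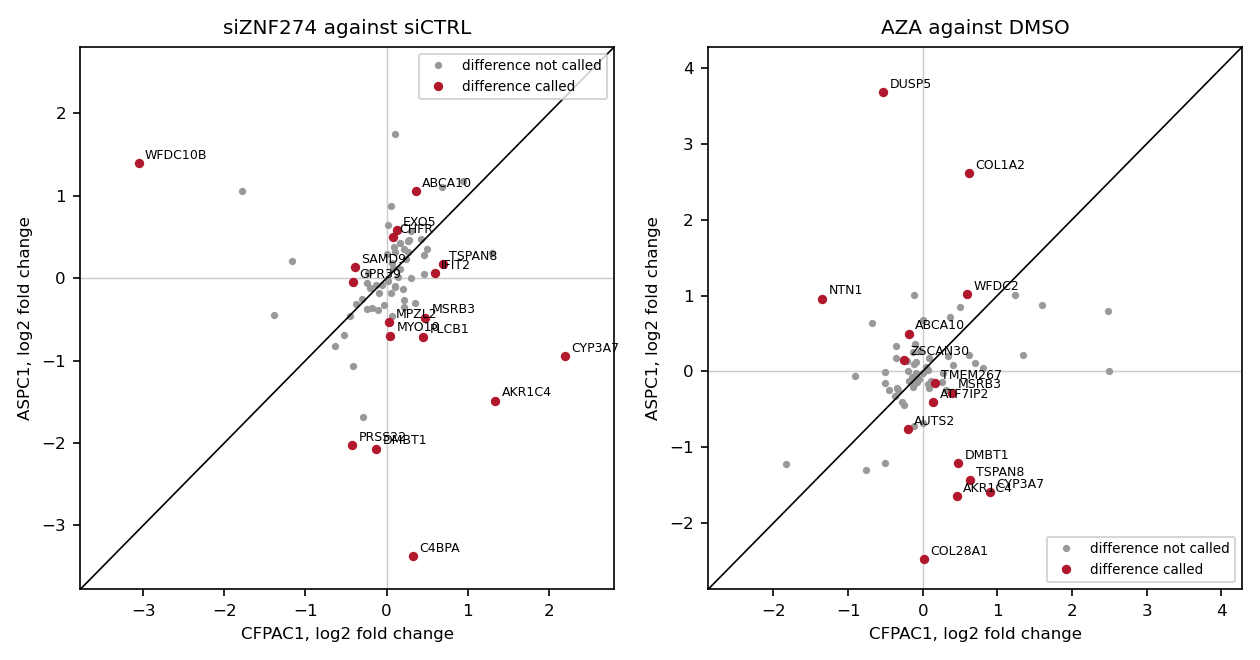
log2 fold change in ASPC1 (vertical) against CFPAC1 (horizontal) for siZNF274 against siCTRL (left) and AZA against DMSO (right), from the joint fit. The solid line marks equal effects, and red points with names are the 17 and 15 members whose difference between lines had an adjusted p under 0.05. WFDC10B, CYP3A7 and AKR1C4 rest on very few counts in CFPAC1.

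Genes that write, read or erase the mark were followed beside the members. Of 26 genes of the H3K9me3 machinery, 4 were higher and 6 lower in ASPC1 siZNF274 against siCTRL libraries, and 0 and 3 in CFPAC1. With AZA 4 were higher and 2 lower in ASPC1, and 2 and 10 in CFPAC1. In ZNF274OE against vector libraries 3 were higher and 10 lower, and 0 genes of this list passed 2-fold in any of the 5 comparisons. Of 14 genes of DNA methylation, 2 were higher and 5 lower in ASPC1 siZNF274, and 1 and 5 in CFPAC1. With AZA 4 were higher and 2 lower in ASPC1, and 1 and 5 in CFPAC1, and in ZNF274OE 1 was higher and 4 lower. The share called in ASPC1 siZNF274, ASPC1 AZA, CFPAC1 siZNF274, CFPAC1 AZA and ZNF274OE was 38.5%, 23.1%, 11.5%, 46.2% and 50% for the H3K9me3 list and 50%, 42.9%, 42.9%, 42.9% and 35.7% for the DNA methylation list. The background in the same order was 45.7%, 35.8%, 24.8%, 25.7% and 36.9% of all tested genes, and no difference from it was tested.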

How the data were processed

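RNA was sequenced from stranded, ribosomal RNA-depleted total RNA (500 ng), and the authors deposited raw counts per gene, aligned with STAR 2.7.10b to hg38 per the submitters' processing notes. The counting program, strand setting and annotation are not stated there. H3K9me3 peaks on hg38 were deposited as 1 broad list with positions, the arms in which each peak was called, and the authors' Up or Down call. The score in the deposited list is the same for every peak, as the authors left it, and was not used. It is not stated whether the caller saw samples singly or pooled. The notes name Bowtie2, MACS2, HOMER, featureCounts and edgeR for CUT&RUN.

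Counts were fitted per line with edgeR 4.0.16 (filterByExpr, TMM scaling, quasi-likelihood test) in R 4.3.3, with Benjamini-Hochberg adjustment over all tested genes and a threshold of 0.05. Differences between ASPC1 and CFPAC1 came from 1 model of 24 libraries. The fits were tested on simulated data. CPM are TMM-scaled within a line. DESeq2 1.42.0 and the other alternatives are described at the end. Design text calls the samples biological triplicates, and p-values measure only the spread between these samples. Same-numbered libraries of CFPAC1 siZNF274 and siCTRL deviated together (correlations 0.556, 0.378 and 0.221), so the numbers may pair them. For number 3, however, the siZNF274 library was closer to a siCTRL library of another number. In the other comparisons 1 or more pairs did not reach 0.1. None of 30 replicate pairs was identical. Members and lists were chosen with earlier results of these data known. Members were named by fold among called genes with groups that do not overlap and a mean of 1 CPM or more (8 per direction), by level (10), by calls in both lines (5) and by the difference between lines (5 each) in addition to family, limit and list examples. MUC5AC, TIGD7 and KCNJ11 lie outside that rule and were named after their values were seen.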

Additional observations from a re-analysis of the deposited data

Results flagged for a closer look

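These members differed between ASPC1 and CFPAC1 by the edgeR test of the difference itself, given as the log2 fold change in ASPC1 minus that in CFPAC1. For siZNF274 against siCTRL the difference was -3.70 (adjusted p = 2.62e-05) for C4BPA and -1.94 (adjusted p = 0.00125) for DMBT1. It was -2.83 (adjusted p = 0.00146) for AKR1C4, -3.15 (adjusted p = 0.0219) for CYP3A7 and 4.45 (adjusted p = 0.0438) for WFDC10B, 3 genes that did not pass the filter on low counts in CFPAC1 alone. CYP3A7 was lost without ASPC1 siZNF274 replicate 1, CFPAC1 siCTRL replicate 2 or CFPAC1 siZNF274 replicate 1 (adjusted p up to 0.19), and WFDC10B without any of the CFPAC1 siCTRL or siZNF274 libraries, ASPC1 siCTRL replicate 3 or ASPC1 siZNF274 replicate 1 or 2 (adjusted p up to 0.0949).

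For AZA against DMSO the difference was 4.21 (adjusted p = 9.43e-10) for DUSP5, 2.30 (adjusted p = 2.14e-05) for NTN1 and -2.49 (adjusted p = 6.96e-05) for COL28A1. It was -2.11 (adjusted p = 0.0182) for AKR1C4, lost without CFPAC1 AZA replicate 1 or 2 or CFPAC1 DMSO replicate 3 (adjusted p up to 0.0978). CYP3A7 had -2.50 (adjusted p = 0.022), lost without ASPC1 AZA replicate 1, CFPAC1 AZA replicate 1 or 3 or CFPAC1 DMSO replicate 2 (adjusted p up to 0.105).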

How the results depend on the processing

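In the alternatives run, 0 called fold changes of named genes changed sign. Of the values for named genes, called or not, 1670 kept their side of the threshold, 138 lost it and 18 gained it. Of the counts and shares, 220 stayed near the main value and 39 did not. Near meant within 1.5 times for counts and inside the exact 95% interval of the main value for shares. With upper quartile scaling the balance of higher and lower members turned in CFPAC1 AZA. The counts of members follow the choice of members. With 25% cover (239 genes) they were 44 higher and 53 lower for siZNF274 and 45 and 56 for AZA in ASPC1, 31 and 24 for siZNF274 and 19 and 34 for AZA in CFPAC1, and 51 and 19 for ZNF274OE. With 75% cover (34 genes) they were 8 and 7, 0 and 8, 6 higher, 1 and 8, and 6 and 0 in the same order. A count minimum of 500 left 4 higher with AZA in ASPC1 and 4 in CFPAC1, and a minimum of 50 gave 2 lower in ZNF274OE, where cover over the RefSeq span gave 0. This RefSeq alternative and the one without the zinc finger members were added after seeing the data. DESeq2 called 4 higher with AZA in ASPC1, and upper quartile scaling 8 lower with AZA in CFPAC1. The share of start sites with a peak was 32% within 1000 bases; the causes were not tested.

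Leaving out 1 library gave 11 to 16 higher and 11 to 15 lower for ASPC1 siZNF274, 5 to 8 and 11 to 14 for ASPC1 AZA, 9 to 13 and 4 to 7 for CFPAC1 siZNF274, 5 to 9 and 7 to 10 for CFPAC1 AZA, 9 to 14 and 1 to 2 for ZNF274OE, and 3 to 6 and 10 to 15 (siZNF274) and 3 to 8 and 6 to 9 (AZA) for the difference between lines. With the replicate block the counts were 16 and 16, 7 and 16, 13 and 6, 8 and 14, 11 and 1, 6 and 13, and 6 and 11 in the same order. Outside CFPAC1 siZNF274 the libraries share only a number; there the block dropped ABCA10 and added RBAK (ASPC1 AZA), dropped TXNDC2 and added ATF7IP2, DUSP22 and PLD5P1 (ASPC1 siZNF274), dropped ACRBP (ZNF274OE), and added AKR1C3 (CFPAC1 AZA), ATF7IP2 and ZFP90 (siZNF274 between lines) and AKR1C3 and KIAA1143 (AZA between lines). Few counts limit C4BPA, DMBT1, CYP3A7 and WFDC10B.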
